A study of Mus musculus with 9 samples.

Results

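The antioxidant and glutathione genes described here are 40 mouse genes listed by name and function, with earlier results of these data known, that encode the stress regulator Nfe2l2 and its inhibitor Keap1, the quinone reductase Nqo1, the enzymes that make and recycle glutathione, glutathione peroxidases, peroxiredoxins, thioredoxins and their reductases, catalase, superoxide dismutases and glutathione transferases. Of these 40 genes, 38 were measured by at least 1 array feature with a single gene symbol, out of 19938 genes in all, and Prdx5 and Prdx6 were not analysed here. For a gene with several features, the brightest on average was used. All 38 entered the tests with no filter on signal, and 32 had a mean signal above the median of all genes.

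The data held 9 samples of snap-frozen mammary tumour tissue, 3 each from the transplantable mouse mammary tumour cell lines NDL(UCD), Met1(UCD) and SSM2(UCD). Each sample was measured on its own Affymetrix Mouse Gene 1.0 ST array. Cultured cells were injected on both sides into uncleared fat pads of FVB/NJ females aged 6 to 8 weeks, and tumours were taken at a width of 5 to 10 mm. The tumours had no treatment, and the labels give all 9 samples the strain FVB/N. As background that the labels do not state, NDL derives from a tumour of a mouse with an activated ErbB2 (neu) transgene in the mammary epithelium, Met1 from a polyoma middle T tumour, and SSM2 from a hormone receptor-positive tumour. Each tumour origin was represented by 1 cell line, so the origin and the line cannot be told apart. The labels do not say whether the 3 samples of a line came from separate animals or separate tumours. The p-values therefore measure only the spread between these samples, which may be technical.

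Nfe2l2 (NRF2) is the transcription factor that switches on many detoxifying and antioxidant genes. Keap1 marks it for destruction until oxidants or electrophiles modify Keap1, and Nfe2l2 then pairs with small Maf proteins at antioxidant response elements in DNA. Glutathione and thioredoxin are the parallel thiol systems that pass electrons from NADPH to peroxidases and to oxidised proteins, and glutathione transferases join glutathione to electrophiles. In mice, glutathione synthesis through Gclm is known to contribute to the start of polyoma middle T mammary tumours.

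The upper quartile of log2 signal was 7.85, 7.84 and 8.09 on the NDL arrays, 8.02 to 8.05 on the Met1 arrays and 7.98 to 8.08 on the SSM2 arrays, so NDL replicates 1 and 2 were the lowest of the 9. The labelled tissue was checked with 10 epithelial marker genes, whose mean log2 signal was 10.35 to 10.45 in NDL tumours, 6.07 to 7.77 in Met1 tumours and 10.48 to 10.59 in SSM2 tumours, and none of the 10 averaged under the 25th percentile of all genes (4.91) in any line. All 10 were higher in NDL than in Met1 tumours and lower in Met1 than in SSM2 tumours, at a limma adjusted p under 0.05. Of 10 macrophage markers, with means of 8.60 to 9.33 across NDL, 10.31 to 10.54 across Met1 and 8.63 to 10.02 across SSM2 tumours, 9 were lower in NDL than in Met1, 1 was lower in NDL than in SSM2, and 5 were higher in Met1 than in SSM2. The 10 fibroblast markers averaged 8.83 to 8.87 in NDL tumours and 8.04 to 8.85 in Met1 tumours, and 10.33, 9.56 and 8.78 in SSM2 replicates 1, 2 and 3. Of these 10, 4 were higher (Col1a1, Col1a2, Col3a1 and Mfap5) and 2 lower (Dpt and Pdgfra) in NDL than in Met1, 1 was lower in NDL than in SSM2 (Dcn), and 2 were higher (Dpt and Pdgfra) and 4 lower (Col1a2, Col3a1, Dcn and Mfap5) in Met1 than in SSM2. The 9 measured adipocyte markers averaged 5.86 to 6.65 across NDL, 5.73 to 6.22 across Met1 and 5.59 to 7.37 across SSM2 tumours, and the 4 red blood cell markers 5.46 to 5.69, 5.25 to 5.69 and 5.48 to 5.64 in NDL, Met1 and SSM2 tumours. Of 8 endothelial markers 2 were lower in NDL than in SSM2. Of 7 T cell markers 2 were lower in NDL than in Met1 and 2 higher in Met1 than in SSM2. Of 8 neutrophil markers 1, Camp, was higher in NDL than in Met1, against 8.88% of all genes. The median log2 difference of the 8 there was -0.33. Their means were 4.68 to 5.33 across NDL and 5.20 to 5.27 across Met1 tumours, and 6.68, 5.94 and 4.86 in SSM2 replicates 1, 2 and 3. The part that cell mixture played in the differences below was not tested, and in whole tumours fewer cells of a type and less RNA per cell cannot be told apart.

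Members of the same thiol system differed in direction between the lines. NDL tumours were marked by high Mgst1, Gstt1, Mgst2, Gstm1, Gpx4, Keap1 and Cat and by low Prdx4, Gpx8 and Txn1, against both other lines. SSM2 tumours were marked by high Gsr, Gclc and Gsto1 and by low Gstm5 and Txn2, and Met1 tumours by low Prdx3. In a limma F-test over the 3 lines, 18 of the 38 genes differed at an adjusted p under 0.05, against 25.1% of all genes. The same number, 18, passed in at least 1 of the 3 contrasts below, and 20 passed in none. The share of all genes that passed in at least 1 contrast was not counted, and the shares for each contrast are given below. Each pair of contrasts shares the 3 arrays of 1 line, so the counts below are not independent of each other.

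Between NDL and Met1 tumours, 12 of the 38 genes passed at a limma adjusted p under 0.05, 8 higher and 4 lower in NDL, which is 31.6% of them, against 19.1% of all genes. The shares by direction were 21.1% higher, against 8.88% of all genes, and 10.5% lower, against 10.2% of all genes. The median log2 difference was 0.29 over the 38 genes and 0.06 over all genes. Between NDL and SSM2 tumours, 16 passed, 10 higher and 6 lower in NDL, which is 42.1%, against 16.9% of all genes, with 9.35% of all genes higher and 7.52% lower. The medians there were 0.06 over the 38 genes and 0.09 over all genes. Between Met1 and SSM2 tumours, 6 passed, 2 higher and 4 lower in Met1, which is 15.8%, against 11.8% of all genes, with 7.10% higher and 4.71% lower. The medians were -0.09 and 0.04. Without NDL replicates 1 and 2, whose arrays had the lowest upper quartiles, the calls fell to 3 higher and 3 lower in NDL against Met1, which is 15.8% of the members, and the share of all genes fell to 8.54%. In NDL against SSM2 they fell to 4 higher and 3 lower, which is 18.4%, and the share of all genes to 5.97%. The F-test then called 11, against 14.7% of all genes. Among the calls made with all arrays, those of Mgst1, Gstt1, Prdx3, Prdx4 and Gpx8 against Met1, and of Mgst1, Gstm5, Gstt1, Gpx4, Prdx4, Gclc and Gsr against SSM2, passed without these arrays as well. In Met1 against SSM2 the count higher in Met1 was 1 without Met1 replicate 1, Met1 replicate 3 or SSM2 replicate 2. Array weights gave 6 higher and 8 lower in that contrast (36.8%), where the share of all genes was 20.1%. Without NDL replicate 3, 31.6% of the members passed in NDL against Met1, against 33.3% of all genes. When only genes above the median of mean signal were tested, 32 members remained, and the shares lay closer together in the contrasts with Met1. In NDL against Met1 40.6% of these members passed, against 33.1% of the genes tested. The shares were 50% against 28.1% in NDL against SSM2, and 18.75% against 20.1% in Met1 against SSM2. In the F-test they were 53.1% of these members against 42.6% of the genes tested.

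**Figure D1:**
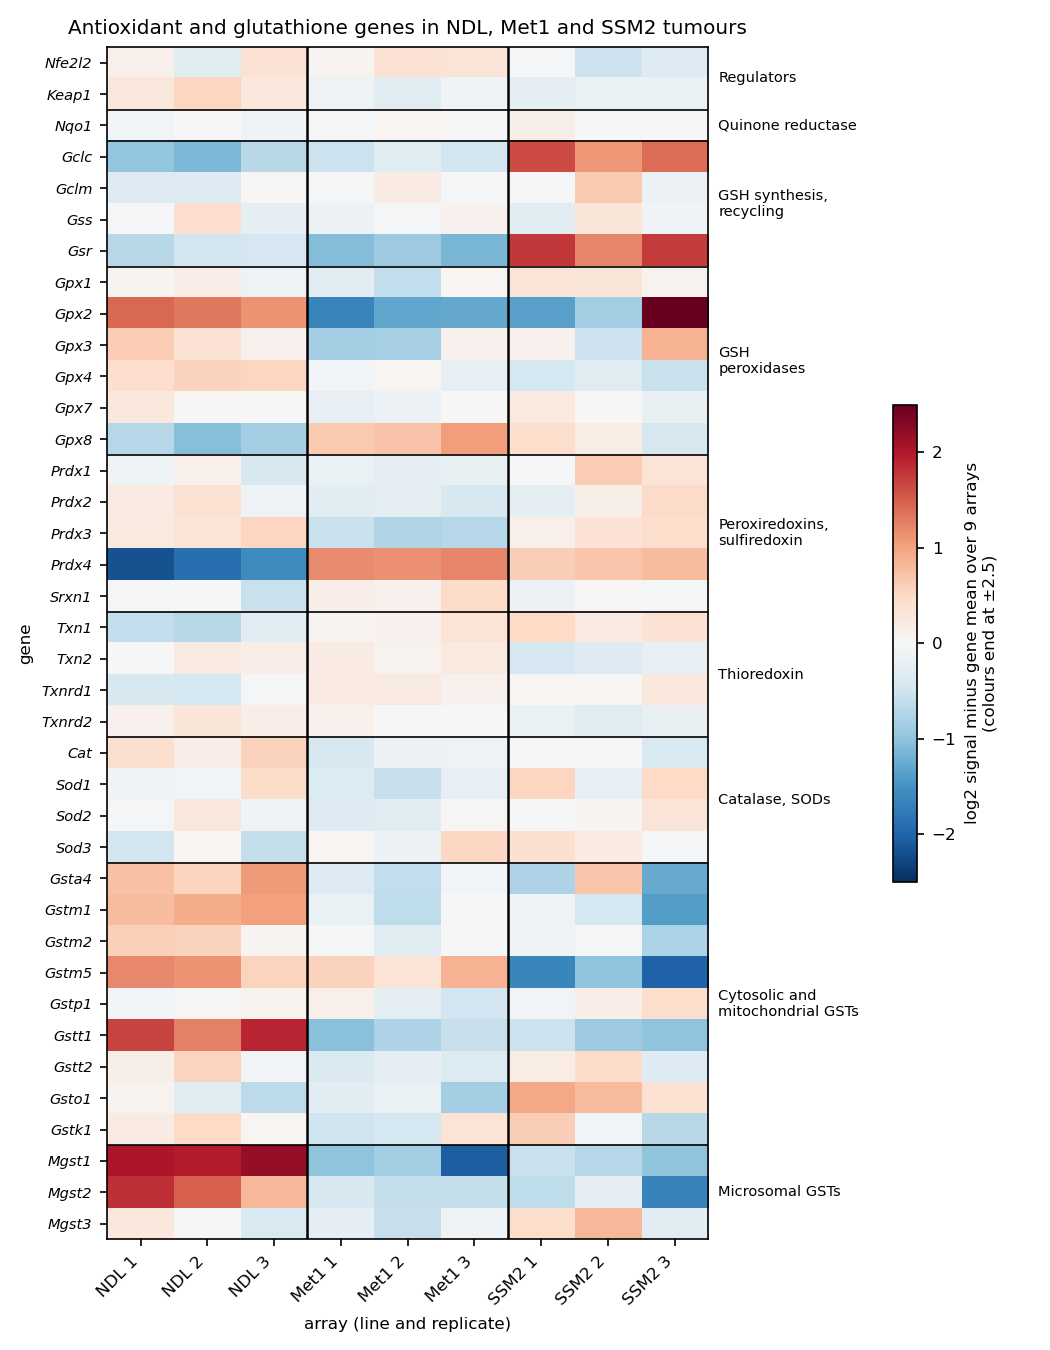
Log2 signal of the 38 measured antioxidant and glutathione genes (rows, grouped by role) on the 9 arrays (columns: NDL, Met1 and SSM2, 3 each), each shown as its difference from the gene's mean over the 9 arrays. Mgst1, Gstt1 and Mgst2 stand high on all 3 NDL arrays and Prdx4 low, while Gsr and Gclc stand high on all 3 SSM2 arrays.

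The map of all members by array shows this arrangement, with replicates of a line close to each other for most genes. Gpx2 is the clearest exception, since SSM2 replicate 3 stood apart from SSM2 replicates 1 and 2. The plot of differences with their intervals shows which members passed in which contrast.

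**Figure D2:**
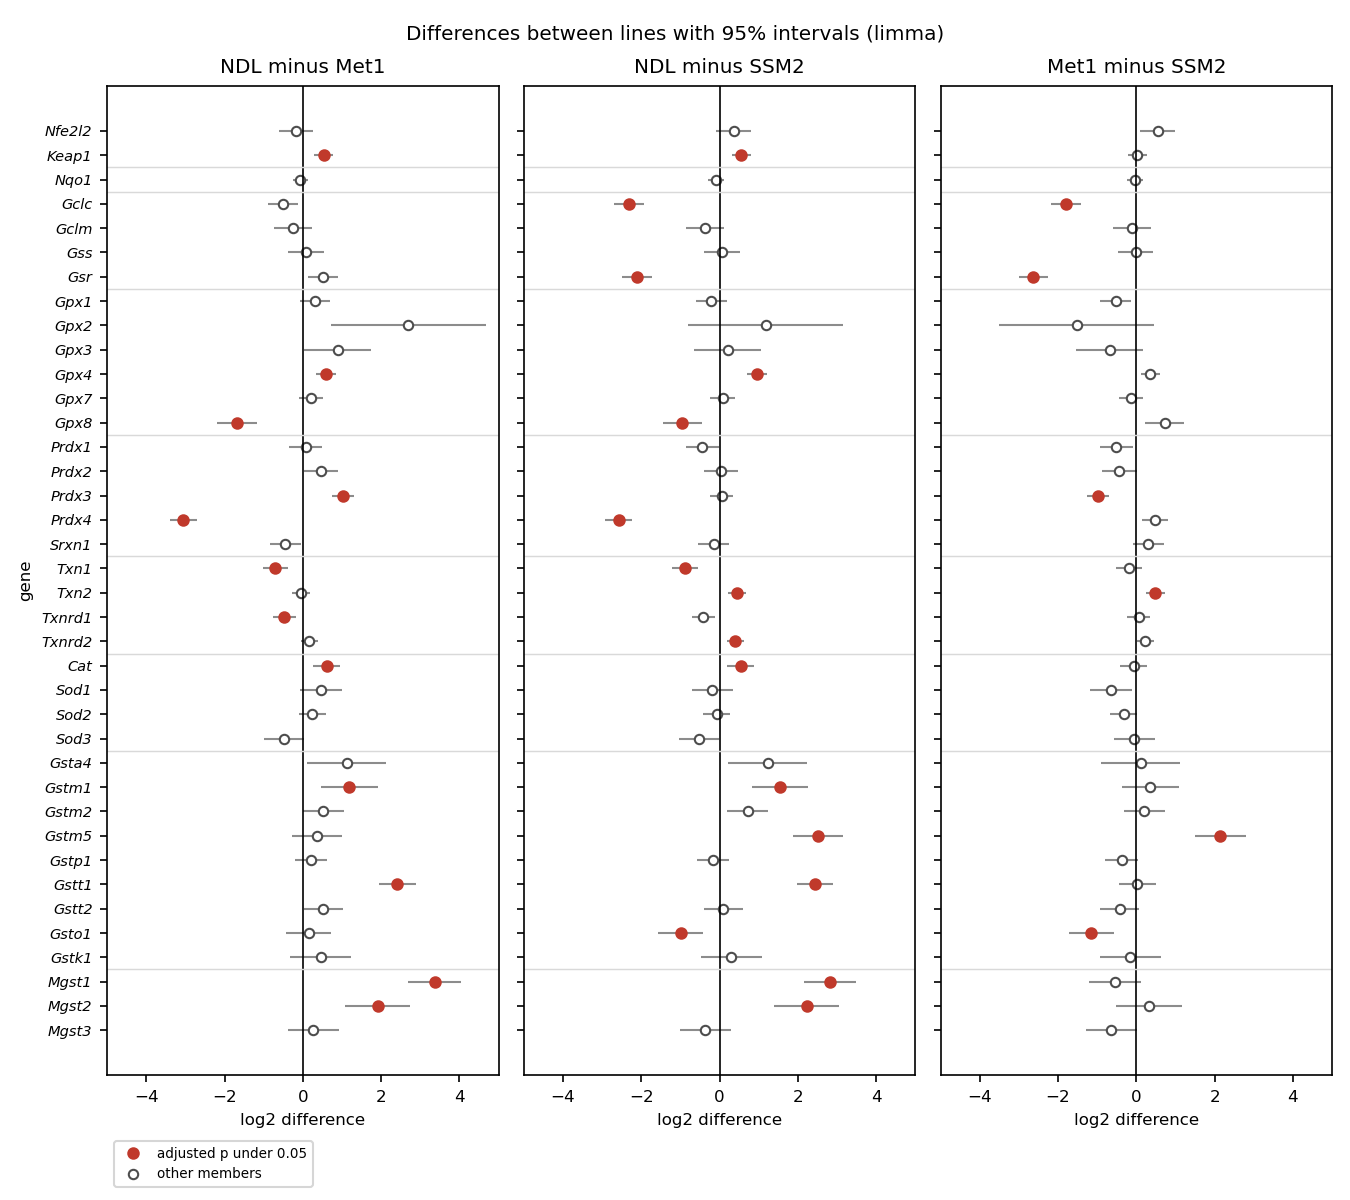
Log2 differences of the 38 genes for NDL minus Met1, NDL minus SSM2 and Met1 minus SSM2, with 95% intervals from limma (horizontal lines). Filled points passed at an adjusted p under 0.05, and open points did not, for 12, 16 and 6 filled points from left to right.

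Among the regulators, Nfe2l2 itself had log2 signals of 9.43, 9.01 and 9.67 in NDL tumours, 9.37, 9.67 and 9.63 in Met1 tumours and 9.26, 8.79 and 8.98 in SSM2 tumours. The NDL arrays overlapped both other lines, whereas every Met1 array was above every SSM2 array, and no contrast passed. The 95% interval of the log2 difference was -0.62 to 0.25 for NDL minus Met1, -0.08 to 0.79 for NDL minus SSM2 and 0.11 to 0.98 for Met1 minus SSM2. Keap1, the adaptor that holds Nfe2l2 down, had signals of 8.62, 8.87 and 8.59 in NDL tumours, 8.20, 8.05 and 8.24 in Met1 tumours and 8.09, 8.17 and 8.16 in SSM2 tumours. All 3 NDL arrays were above the other 6, and Met1 and SSM2 overlapped. Keap1 was 1.45-fold higher in NDL tumours than in Met1 tumours (log2 difference 0.53, SE 0.11, adjusted p = 0.0104) and 1.47-fold higher in NDL tumours than in SSM2 tumours (log2 difference 0.56, SE 0.11, adjusted p = 0.0101). The classic Nfe2l2 target Nqo1, a quinone reductase, averaged 4.45 ± 0.05 in NDL, 4.51 ± 0.05 in Met1 and 4.55 ± 0.08 in SSM2 tumours (SD, n = 3 each). These means were under the 25th percentile of all genes, where a difference between lines may not be detectable, and no contrast of Nqo1 passed.

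Of the 4 genes that make and recycle glutathione, 2 were lower in NDL and in Met1 than in SSM2 tumours, and 2 passed in no contrast. Gclc, the catalytic subunit of the rate-limiting enzyme of glutathione synthesis, had signals of 7.36, 7.22 and 7.66 in NDL tumours, 7.82, 8.05 and 7.89 in Met1 tumours and 9.97, 9.44 and 9.75 in SSM2 tumours. Gsr, the reductase that returns oxidised glutathione to its reduced form, had signals of 8.60, 8.83 and 8.88 in NDL tumours, 8.22, 8.39 and 8.16 in Met1 tumours and 11.08, 10.53 and 11.05 in SSM2 tumours. For both genes the 3 lines did not overlap, with SSM2 the highest line. Gclc was 4.94-fold lower in NDL tumours than in SSM2 tumours (log2 difference -2.31, SE 0.17, adjusted p = 8.16e-05) and 3.48-fold lower in Met1 tumours than in SSM2 tumours (log2 difference -1.80, SE 0.17, adjusted p = 0.000377). Gsr was 4.32-fold lower in NDL tumours than in SSM2 tumours (log2 difference -2.11, SE 0.16, adjusted p = 0.000112) and 6.18-fold lower in Met1 tumours than in SSM2 tumours (log2 difference -2.63, SE 0.16, adjusted p = 7.16e-05). These calls held with each array left out in turn. Between NDL and Met1, Gclc differed by -0.51 (adjusted p = 0.0712) and Gsr by 0.51 (adjusted p = 0.0626), and neither passed with all arrays. Gclc passed without NDL replicate 3 (adjusted p = 0.0241). Gsr passed without SSM2 replicate 2 (adjusted p = 0.0216), after cyclic loess (0.0257), equal array medians (0.0423) and quantile normalization (0.0375), and in a fit of these lines alone (0.0282). Gclm, the regulatory subunit that partners Gclc, averaged 8.75 ± 0.20 in NDL, 9.01 ± 0.14 in Met1 and 9.13 ± 0.43 in SSM2 tumours (SD, n = 3 each). Gss, which completes glutathione, averaged 8.23 ± 0.34, 8.15 ± 0.13 and 8.16 ± 0.28 in NDL, Met1 and SSM2 tumours. Neither Gclm nor Gss followed Gclc past the threshold, and the 95% interval of Gclm for NDL minus SSM2 was -0.86 to 0.11.

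**Figure D3:**
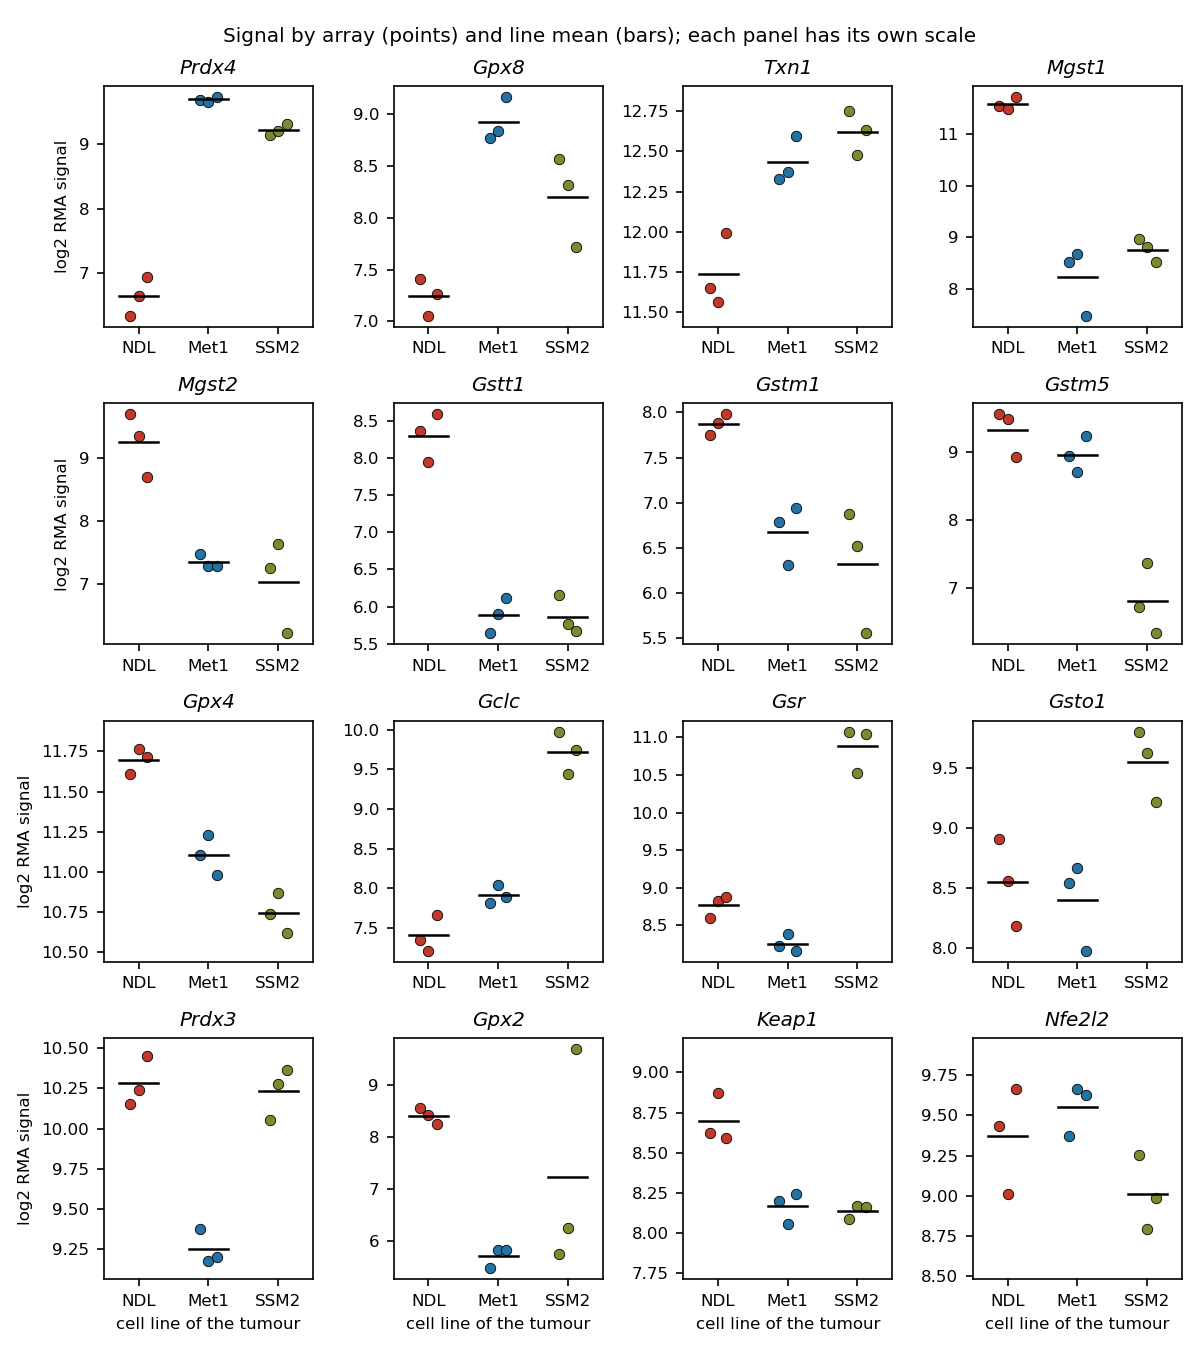
Log2 signal by array (points) and line mean (bars) of leading members in NDL, Met1 and SSM2 tumours, with a scale of its own in each panel. Prdx4 lay at 6.33 to 6.94 on the NDL arrays and above 9 on the other 6, and Gsr lay above 10 on the 3 SSM2 arrays alone.

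Gsr lies on chromosome 8, and the 10 genes nearest to it in RefSeq order with a mean above the 25th percentile were examined, a choice made after the values of Gsr had been seen. In NDL against SSM2 tumours 5 of the 10 were lower in NDL and none higher, with a median log2 difference of -0.63. These were Ppp2cb (-0.75), Ubxn8 (-0.55), Gtf2e2 (-1.09), Dctn6 (-0.50) and Leprotl1 (-0.78). In Met1 against SSM2 tumours 5 were lower in Met1, with a median of -0.72, namely Ppp2cb (-1.56), Ubxn8 (-1.15), Gtf2e2 (-1.31), Dctn6 (-0.64) and Rbpms (-1.85). Both contrasts use the same SSM2 arrays. When only genes above the 25th percentile were tested, 22.3% of them passed in NDL against SSM2 and 16.1% in Met1 against SSM2, in either direction. The difference of Gsr itself was larger than that of any of the 10 in both contrasts. With 1 array left out, the count lower in NDL ran from 1 to 7, with 1 without NDL replicate 1, 2 without NDL replicate 2, and 3 without SSM2 replicate 1 or 2. The count lower in Met1 ran from 3, without Met1 replicate 1, to 6. Ubxn8 passed in both contrasts with each array left out in turn. In NDL against Met1 tumours 3 of the 10 were higher in NDL and 0 lower, where 25.6% of genes above the 25th percentile passed in either direction. There Rbpms (2.30) differed by more than Gsr itself (0.51). Around Gclc, on chromosome 9, the differences of 10 neighbours chosen in the same way ran from -1.05 to 1.42 for NDL minus SSM2 and from -2.17 to 1.09 for Met1 minus SSM2. Around Mgst1, on chromosome 6, 5 of 10 such neighbours passed in NDL against SSM2, 2 higher and 3 lower, with differences of -1.25 to 3.44. The largest was that of Slco1a5 (3.44), above that of Mgst1 itself (2.83). Around Gstt1, on chromosome 10, 1 of 10 passed in NDL against SSM2, higher in NDL. It was the related Gstt3 (2.14), which is also counted among the further transferase genes below. In NDL against Met1, 3 passed around Mgst1, 2 higher and 1 lower, with Slco1a5 at 3.34, and 1 around Gstt1, again Gstt3 (1.23). In Met1 against SSM2, 0 passed around Mgst1 and 2 around Gstt1, 1 higher and 1 lower.

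**Figure D4:**
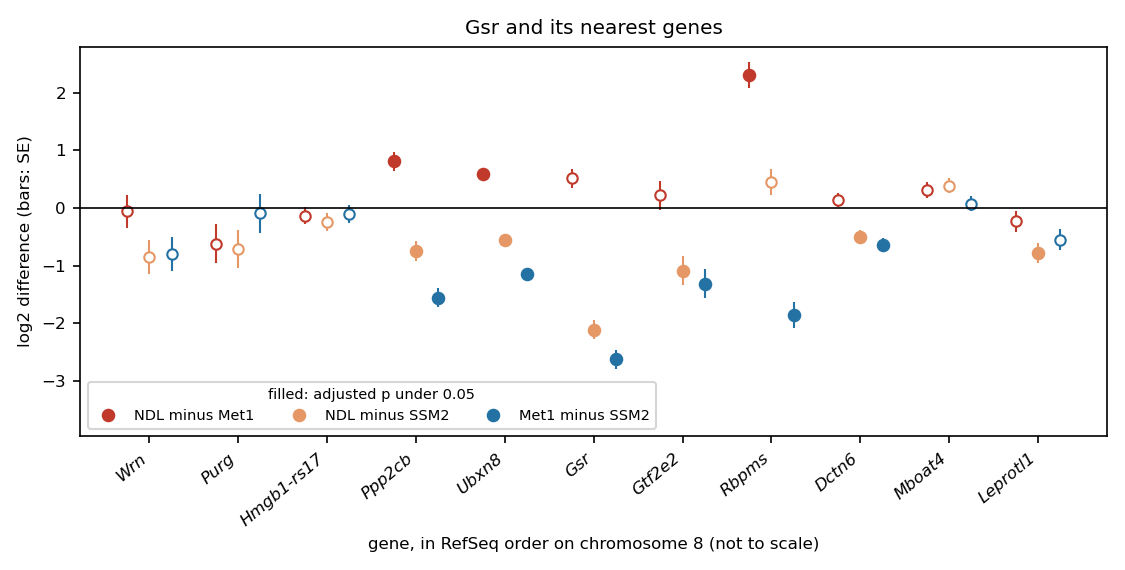
Log2 differences (points, with SE bars) of Gsr and its 10 nearest genes in RefSeq order on chromosome 8, not to scale, for the 3 contrasts. Filled points passed at an adjusted p under 0.05, and 5 of the 10 neighbours were lower in NDL, and 5 lower in Met1, than in SSM2. In NDL minus Met1, 3 of the 10 were higher in NDL.

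The 6 members of the glutathione peroxidase family, named for the use of glutathione to reduce peroxides, were divided in direction. Gpx4, the selenoenzyme that protects membrane lipids and blocks ferroptosis, had signals of 11.61, 11.76 and 11.72 in NDL tumours, 11.10, 11.23 and 10.98 in Met1 tumours and 10.74, 10.87 and 10.62 in SSM2 tumours. The 3 lines did not overlap, with NDL highest and SSM2 lowest. Gpx4 was 1.51-fold higher in NDL tumours than in Met1 tumours (log2 difference 0.59, SE 0.11, adjusted p = 0.00722) and 1.94-fold higher in NDL tumours than in SSM2 tumours (log2 difference 0.95, SE 0.11, adjusted p = 0.000846), while Met1 minus SSM2 (0.36) did not pass (adjusted p = 0.0742). Its other array feature passed in the same contrasts, with log2 differences of 0.60 and 0.92. Gpx8, a peroxidase of the endoplasmic reticulum membrane, had signals of 7.41, 7.05 and 7.27 in NDL tumours, 8.77, 8.84 and 9.17 in Met1 tumours and 8.56, 8.31 and 7.72 in SSM2 tumours, with no overlap between lines. It was 3.21-fold lower in NDL tumours than in Met1 tumours (log2 difference -1.68, SE 0.22, adjusted p = 0.00127) and 1.94-fold lower in NDL tumours than in SSM2 tumours (log2 difference -0.95, SE 0.22, adjusted p = 0.0212). The call against SSM2 ended without NDL replicate 2, or SSM2 replicate 1 or 2 (adjusted p 0.0563 to 0.0726). Gpx7, which also resides in the endoplasmic reticulum, averaged 5.64 ± 0.15 in NDL, 5.44 ± 0.10 in Met1 and 5.57 ± 0.21 in SSM2 tumours and passed in no contrast.

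Gpx2, known as the gastrointestinal glutathione peroxidase, is given by array because 1 SSM2 array stood far from the others of its line, a choice made after its values were seen. Its signals were 8.56, 8.43 and 8.25 in NDL tumours, 5.48, 5.83 and 5.83 in Met1 tumours and 5.75, 6.26 and 9.69 in SSM2 tumours. SSM2 replicate 3 was above all NDL arrays, and SSM2 replicates 1 and 2 were below them. With all 9 arrays neither NDL minus Met1 (2.70, adjusted p = 0.0627) nor NDL minus SSM2 (1.18, adjusted p = 0.351) passed. Without SSM2 replicate 3 both passed, at 2.70 (adjusted p = 8.14e-05) and 2.41 (adjusted p = 0.000247), and without SSM2 replicate 1 the contrast with Met1 passed (adjusted p = 0.0412), as it did in a fit of NDL and Met1 alone (adjusted p = 0.000206). SSM2 replicate 3 was also the SSM2 array with the lowest fibroblast and macrophage marker means, and the part of this in the Gpx2 signal was not tested. Gpx1, the abundant cytosolic form, averaged 10.93 ± 0.15, 10.62 ± 0.33 and 11.15 ± 0.13 in NDL, Met1 and SSM2 tumours, and Gpx3, the secreted plasma form, 8.16 ± 0.27, 7.27 ± 0.54 and 7.95 ± 0.69 (SD, n = 3 each). Neither passed in any contrast.

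Among the peroxiredoxins, which reduce peroxides with electrons from thioredoxin, Prdx4 had the lowest adjusted p of the 38 genes in both NDL contrasts. Prdx4 is the peroxiredoxin of the endoplasmic reticulum, where it passes oxidising equivalents to the enzymes that form disulfide bonds, and its gene lies on chromosome X. Its signals were 6.33, 6.64 and 6.94 in NDL tumours, 9.69, 9.66 and 9.73 in Met1 tumours and 9.14, 9.21 and 9.31 in SSM2 tumours. Every NDL array was below the other 6, and every Met1 array was above every SSM2 array. Prdx4 was 8.32-fold lower in NDL tumours than in Met1 tumours (log2 difference -3.06, SE 0.15, adjusted p = 1.24e-05) and 5.98-fold lower in NDL tumours than in SSM2 tumours (log2 difference -2.58, SE 0.15, adjusted p = 2.44e-05). Met1 minus SSM2 was 0.48 (95% interval 0.14 to 0.82, adjusted p = 0.0799) and passed without NDL replicate 1 or NDL replicate 3 (adjusted p 0.0239 to 0.0413), with array weights (0.00769) and in a fit of these lines alone (0.0174). The 10 nearest measured genes, a set chosen after the values of Prdx4 were seen, had differences of -1.10 to 0.27 for NDL minus Met1 and -1.20 to 0.68 for NDL minus SSM2.

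Prdx3, the mitochondrial peroxiredoxin, had signals of 10.16, 10.24 and 10.45 in NDL tumours, 9.37, 9.17 and 9.20 in Met1 tumours and 10.06, 10.27 and 10.36 in SSM2 tumours. The Met1 arrays lay below the other 6, and NDL and SSM2 overlapped. Prdx3 was 2.05-fold higher in NDL tumours than in Met1 tumours (log2 difference 1.03, SE 0.13, adjusted p = 0.000893) and 1.97-fold lower in Met1 tumours than in SSM2 tumours (log2 difference -0.98, SE 0.13, adjusted p = 0.00175). The cytosolic Prdx1 averaged 10.42 ± 0.26, 10.35 ± 0.04 and 10.86 ± 0.33, and Prdx2 11.54 ± 0.24, 11.07 ± 0.09 and 11.50 ± 0.37, in NDL, Met1 and SSM2 tumours (SD, n = 3 each). Neither passed with the feature used. Another Prdx1 feature was lower in Met1 than in SSM2 by 0.61 on the log2 scale in a limma fit of every feature (adjusted p = 0.0273), where the feature used gave -0.51 (adjusted p = 0.128). The 2 Prdx2 features had opposite signs in NDL minus SSM2 (0.04 and -0.19), and neither passed. Srxn1, which repairs overoxidised peroxiredoxins, averaged 7.73 ± 0.32, 8.18 ± 0.20 and 7.88 ± 0.08 and passed in no contrast.

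In the thioredoxin system, the cytosolic thioredoxin was lower, and the mitochondrial thioredoxin and its reductase were higher, in NDL than in SSM2 tumours. Txn1, the cytosolic thioredoxin, had signals of 11.65, 11.56 and 11.99 in NDL tumours, 12.33, 12.37 and 12.60 in Met1 tumours and 12.75, 12.48 and 12.63 in SSM2 tumours. All NDL arrays were below the other 6. Txn1 was 1.62-fold lower in NDL tumours than in Met1 tumours (log2 difference -0.70, SE 0.14, adjusted p = 0.0111) and 1.85-fold lower in NDL tumours than in SSM2 tumours (log2 difference -0.89, SE 0.14, adjusted p = 0.00461). Its reductase Txnrd1 had signals of 8.71, 8.68 and 9.07 in NDL tumours, 9.33, 9.34 and 9.22 in Met1 tumours and 9.17, 9.17 and 9.37 in SSM2 tumours, again with the NDL arrays lowest. Txnrd1 was lower in NDL than in Met1 (log2 difference -0.48, SE 0.13, adjusted p = 0.0323), a call that ended without NDL replicate 1 or 2, or each of Met1 replicates 1 to 3 in turn (adjusted p 0.0692 to 0.117), and NDL minus SSM2 was -0.42 (adjusted p = 0.057). Txn2, the mitochondrial thioredoxin, had signals of 9.58, 9.79 and 9.72 in NDL tumours, 9.77, 9.65 and 9.81 in Met1 tumours and 9.15, 9.25 and 9.36 in SSM2 tumours. The SSM2 arrays lay below the other 6. Txn2 was higher in NDL than in SSM2 tumours (log2 difference 0.44, SE 0.10, adjusted p = 0.0226) and higher in Met1 than in SSM2 tumours (log2 difference 0.49, SE 0.10, adjusted p = 0.0179). The first of these calls ended without NDL replicate 2, or SSM2 replicate 1 or 2 (adjusted p 0.061 to 0.0699) and the second without Met1 replicate 1 or 3, or SSM2 replicate 1 or 2 (adjusted p 0.0527 to 0.0756). The mitochondrial reductase Txnrd2 averaged 7.39 ± 0.10, 7.22 ± 0.07 and 6.99 ± 0.07 in NDL, Met1 and SSM2 tumours and was higher in NDL than in SSM2 tumours (log2 difference 0.40, SE 0.10, adjusted p = 0.0254), a call that ended without NDL replicate 2, or SSM2 replicate 2 (adjusted p 0.0704 to 0.0773).

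Of catalase and the 3 superoxide dismutases, only catalase passed a contrast. Cat, the peroxisomal enzyme that breaks down hydrogen peroxide without a thiol donor, had signals of 9.31, 9.08 and 9.49 in NDL tumours, 8.50, 8.77 and 8.78 in Met1 tumours and 8.87, 8.86 and 8.52 in SSM2 tumours. The NDL arrays were the highest, with no overlap, and Met1 and SSM2 overlapped. Cat was 1.52-fold higher in NDL tumours than in Met1 tumours (log2 difference 0.61, SE 0.15, adjusted p = 0.0252) and 1.46-fold higher in NDL tumours than in SSM2 tumours (log2 difference 0.54, SE 0.15, adjusted p = 0.0435). The call against Met1 ended without NDL replicate 1, or each of Met1 replicates 1 to 3 in turn (adjusted p 0.0544 to 0.094). The call against SSM2 ended without NDL replicate 1 or 3, each of Met1 replicates 1 to 3 in turn, or each of SSM2 replicates 1 to 3 in turn (adjusted p 0.0586 to 0.124). Sod1, the cytosolic dismutase, averaged 10.94 ± 0.31, 10.46 ± 0.19 and 11.12 ± 0.42, the mitochondrial Sod2 9.47 ± 0.20, 9.23 ± 0.19 and 9.54 ± 0.16, and the extracellular Sod3 6.00 ± 0.34, 6.48 ± 0.34 and 6.52 ± 0.22, in NDL, Met1 and SSM2 tumours (SD, n = 3 each).

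Of the 3 microsomal glutathione transferases, which sit in membranes and can also act as peroxidases, 2 were high in NDL tumours. Mgst1 had signals of 11.55, 11.49 and 11.73 in NDL tumours, 8.52, 8.68 and 7.47 in Met1 tumours and 8.97, 8.80 and 8.51 in SSM2 tumours. Mgst2, which can also make a leukotriene, had signals of 9.70, 9.36 and 8.70 in NDL tumours, 7.48, 7.27 and 7.28 in Met1 tumours and 7.25, 7.62 and 6.21 in SSM2 tumours. For both genes every NDL array was above the other 6, and Met1 and SSM2 overlapped. Mgst1 was 10.3-fold higher in NDL tumours than in Met1 tumours (log2 difference 3.37, SE 0.29, adjusted p = 0.000177) and 7.09-fold higher in NDL tumours than in SSM2 tumours (log2 difference 2.83, SE 0.29, adjusted p = 0.000455). Mgst2 was 3.75-fold higher in NDL tumours than in Met1 tumours (log2 difference 1.91, SE 0.37, adjusted p = 0.00802) and 4.68-fold higher in NDL tumours than in SSM2 tumours (log2 difference 2.23, SE 0.37, adjusted p = 0.0049). Mgst3 averaged 6.64 ± 0.33, 6.37 ± 0.25 and 7.01 ± 0.56 in NDL, Met1 and SSM2 tumours and passed in no contrast. The 10 epithelial markers were also higher in NDL than in Met1 tumours, while none of them passed in NDL against SSM2 tumours by limma (0 of 10 at an unadjusted p under 0.05). The part of epithelial content in the Mgst1 and Mgst2 signals was not tested.

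Of the 9 cytosolic and mitochondrial glutathione transferases, 4 passed in at least 1 contrast. Gstt1, a theta-class enzyme that handles halogenated hydrocarbons, had signals of 8.37, 7.94 and 8.59 in NDL tumours, 5.64, 5.91 and 6.11 in Met1 tumours and 6.15, 5.77 and 5.67 in SSM2 tumours. The NDL arrays stood clear of the other 6, which overlapped each other. Gstt1 was 5.32-fold higher in NDL tumours than in Met1 tumours (log2 difference 2.41, SE 0.21, adjusted p = 0.000165) and 5.41-fold higher in NDL tumours than in SSM2 tumours (log2 difference 2.44, SE 0.21, adjusted p = 0.000158). Gstm1, a mu-class enzyme, had signals of 7.75, 7.88 and 7.98 in NDL tumours, 6.78, 6.32 and 6.94 in Met1 tumours and 6.88, 6.52 and 5.56 in SSM2 tumours, again with NDL above the other 6. It was 2.28-fold higher in NDL tumours than in Met1 tumours (log2 difference 1.19, SE 0.31, adjusted p = 0.0311) and 2.93-fold higher in NDL tumours than in SSM2 tumours (log2 difference 1.55, SE 0.31, adjusted p = 0.0123). The call against Met1 ended without each of NDL replicates 1 to 3 in turn, or each of Met1 replicates 1 to 3 in turn (adjusted p 0.0513 to 0.112). Gstm5, another mu-class enzyme of the same chromosome 3 cluster, had signals of 9.56, 9.48 and 8.92 in NDL tumours, 8.94, 8.70 and 9.23 in Met1 tumours and 6.72, 7.36 and 6.34 in SSM2 tumours. Here the SSM2 arrays were the low ones, and NDL and Met1 overlapped. Gstm5 was 5.71-fold higher in NDL tumours than in SSM2 tumours (log2 difference 2.51, SE 0.28, adjusted p = 0.000698) and 4.44-fold higher in Met1 tumours than in SSM2 tumours (log2 difference 2.15, SE 0.28, adjusted p = 0.00196).

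Gsto1, an omega-class enzyme that reduces rather than conjugates many of its substrates, had signals of 8.91, 8.56 and 8.18 in NDL tumours, 8.54, 8.67 and 7.97 in Met1 tumours and 9.80, 9.62 and 9.22 in SSM2 tumours. The SSM2 arrays were above the other 6. Gsto1 was 2.00-fold lower in NDL tumours than in SSM2 tumours (log2 difference -1.00, SE 0.25, adjusted p = 0.0296) and 2.22-fold lower in Met1 tumours than in SSM2 tumours (log2 difference -1.15, SE 0.25, adjusted p = 0.02). The first call also ended after quantile normalization (adjusted p = 0.053), with array weights (0.0575) and in a fit of NDL and SSM2 alone (0.056). It ended without NDL replicate 2, Met1 replicate 1, or SSM2 replicate 1 or 2 (adjusted p 0.0507 to 0.0891) and the second without Met1 replicate 1 or 3, or SSM2 replicate 1 or 2 (adjusted p 0.0545 to 0.0669). Gsta4, which clears products of lipid peroxidation, had signals of 8.78, 8.61 and 9.11 in NDL tumours, 7.72, 7.43 and 7.98 in Met1 tumours and 7.28, 8.74 and 6.78 in SSM2 tumours, and was singled out after its values were seen, since SSM2 replicate 2 lay within the NDL range. It passed in no contrast with all 9 arrays, but without SSM2 replicate 2 it was higher in NDL than in SSM2 by 1.80 (adjusted p = 0.00374) and passed against Met1 (adjusted p = 0.0104). It also passed against Met1 in a fit of NDL and Met1 alone (adjusted p = 0.00915). Gstm2, Gstp1, Gstt2 and Gstk1 passed in no contrast, with line means between 5.42 ± 0.46 (Gstk1, Met1 tumours) and 10.84 ± 0.26 (Gstp1, SSM2 tumours). Probes of the mu, theta and pi classes may also bind near-identical relatives such as Gstp2, so the values of single genes of these classes are uncertain.

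The 300 bases around the start of each gene, 250 before it and 50 after it, were taken from RefSeq on build GRCm38.p6 (33 of the 38 genes matched) and searched on both strands for TGACNNNGC, the core of the antioxidant response element. A match was found for 8 of the 33 genes, namely Gclm, Gstm5, Mgst1, Nfe2l2, Prdx1, Sod1, Srxn1 and Txnrd1. Of all 32851 windows 12.4% held a match, and 14.0% of 27025 genes had at least 1. Of the 18 genes that passed in any contrast, 16 had a window and 3 of these held a match, and of the 20 that passed in none, 17 had a window and 5 held a match. Windows are shown for Prdx4, the marker of the group, for Mgst1 and Gstm5 as members that passed with a match, and for Gclm as a member with a match that passed in no contrast. Capitals mark the match, and each sequence runs 5′ to 3′ along the strand of its gene.
Prdx4 promoter, chrX:155338411-155338710, minus strand, no match: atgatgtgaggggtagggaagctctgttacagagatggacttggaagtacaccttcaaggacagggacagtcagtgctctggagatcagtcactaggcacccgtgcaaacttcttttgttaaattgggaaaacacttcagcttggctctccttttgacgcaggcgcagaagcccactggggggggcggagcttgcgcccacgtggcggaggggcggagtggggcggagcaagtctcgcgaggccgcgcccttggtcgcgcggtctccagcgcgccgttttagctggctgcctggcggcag
Mgst1 promoter, chr6:138140277-138140576, plus strand: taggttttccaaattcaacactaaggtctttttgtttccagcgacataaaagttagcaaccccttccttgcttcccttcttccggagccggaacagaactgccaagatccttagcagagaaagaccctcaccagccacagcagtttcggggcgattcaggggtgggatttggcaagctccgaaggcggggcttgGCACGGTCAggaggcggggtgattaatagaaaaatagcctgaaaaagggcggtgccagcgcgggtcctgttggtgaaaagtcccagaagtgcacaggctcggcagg
Gstm5 promoter, chr3:107895604-107895903, plus strand: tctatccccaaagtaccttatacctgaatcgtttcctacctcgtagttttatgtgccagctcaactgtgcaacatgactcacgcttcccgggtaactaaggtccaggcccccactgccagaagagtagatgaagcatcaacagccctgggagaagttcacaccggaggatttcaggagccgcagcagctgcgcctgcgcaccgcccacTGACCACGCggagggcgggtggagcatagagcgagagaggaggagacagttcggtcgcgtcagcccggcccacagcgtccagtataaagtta
Gclm promoter, chr3:122245307-122245606, plus strand: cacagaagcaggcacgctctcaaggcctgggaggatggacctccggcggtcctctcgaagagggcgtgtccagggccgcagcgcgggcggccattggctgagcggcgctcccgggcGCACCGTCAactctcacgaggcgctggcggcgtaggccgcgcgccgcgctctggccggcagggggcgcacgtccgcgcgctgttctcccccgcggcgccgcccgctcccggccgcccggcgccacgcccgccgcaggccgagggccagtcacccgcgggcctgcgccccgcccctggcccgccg
The match in Mgst1 begins 56 bases before the start and lies on the strand opposite to the gene, as does that in Gclm, 134 bases before the start, whereas that in Gstm5 lies 42 bases before the start on the strand of the gene. A further Mgst1 window in the table held no match. A match is a description of the letters in the window and does not show binding.

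Genes that act with the members were counted in the same limma fit. Without NDL replicates 1 and 2, 8 of their 27 calls between NDL and Met1 and 7 of their 23 calls between NDL and SSM2 passed. For comparison with the counts of each list, 8.88% of all genes were higher and 10.2% lower in NDL than in Met1 tumours. The shares of all genes were 9.35% higher and 7.52% lower in NDL against SSM2, and 7.10% and 4.71% in Met1 against SSM2. Of 17 other known Nfe2l2 targets measured, 5 were higher and 5 lower in NDL than in Met1 tumours. The 4 with the largest differences were Ephx1, the microsomal epoxide hydrolase (log2 difference 3.37, SE 0.23, adjusted p = 5.98e-05), the aldo-keto reductase Akr1b8 (log2 difference -2.60, SE 0.41, adjusted p = 0.00331), the carbonyl reductase Cbr1 (log2 difference 2.26, SE 0.40, adjusted p = 0.00551) and the malic enzyme Me1, a source of NADPH (log2 difference 1.59, SE 0.26, adjusted p = 0.00376). In NDL against SSM2 tumours 4 were higher and 3 lower, led by Ephx1 (3.33, adjusted p = 5.79e-05), Akr1b8 (-2.18, adjusted p = 0.00918), Cbr1 (1.66, adjusted p = 0.0253) and Nqo2, a relative of Nqo1 (-1.10, adjusted p = 0.00784). In Met1 against SSM2 tumours 3 were higher in Met1 and none lower, the exporter Abcc1 (0.87, adjusted p = 0.00431) and the ferritin subunits Fth1 (0.58, adjusted p = 0.0142) and Ftl1 (0.44, adjusted p = 0.0484). With 1 array left out, the counts ran 3 to 5 and 4 to 5 for higher and lower against Met1, 2 to 4 and 3 to 4 against SSM2, and 1 to 4 higher in Met1 than in SSM2. The lowest counts came without NDL replicate 1, Met1 replicate 1 or Met1 replicate 2 against Met1, without NDL replicates 1 or 2 or SSM2 replicate 2 against SSM2, and without Met1 replicate 1 or Met1 replicate 2 in Met1 against SSM2. The call of Cbr1 against SSM2 ended without NDL replicate 1 or 2, or SSM2 replicate 1 or 2 (adjusted p 0.0626 to 0.0799), that of Fth1 without Met1 replicate 1 or 2 (adjusted p 0.0548 to 0.0606) and that of Ftl1 without NDL replicate 1 or 2, each of Met1 replicates 1 to 3 in turn, or SSM2 replicate 2 or 3 (adjusted p 0.0567 to 0.179).

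Of the 8 partners and regulators of Nfe2l2, Mafg, a small Maf protein, and Nfe2l1, a relative of Nfe2l2, were lower in NDL than in Met1 tumours and higher in Met1 than in SSM2 tumours. Mafg differed by -0.93 (adjusted p = 0.0044) for NDL minus Met1 and by 0.86 (adjusted p = 0.00879) for Met1 minus SSM2. Nfe2l1 differed by -0.59 (adjusted p = 0.0198) and 0.58 (adjusted p = 0.0289) in the same contrasts. The calls of Nfe2l1 ended without NDL replicate 1 or 2, or each of Met1 replicates 1 to 3 in turn (adjusted p 0.0536 to 0.0797) against Met1 and without each of Met1 replicates 1 to 3 in turn, or SSM2 replicate 2 or 3 (adjusted p 0.0659 to 0.113) in the other. In NDL against SSM2 none of the 8 passed by limma, and 0 had an unadjusted p under 0.05.

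Among 9 measured genes of glutathione supply and turnover, Anpep, which trims cysteinyl-glycine outside the cell, was higher in NDL than in Met1 (log2 difference 1.26, SE 0.31, adjusted p = 0.0225) and also than in SSM2 tumours (log2 difference 1.37, SE 0.31, adjusted p = 0.0189). Oplah, which returns oxoproline to glutamate, was lower in NDL than in Met1 (log2 difference -1.52, SE 0.27, adjusted p = 0.00587) and than in SSM2 tumours (log2 difference -1.28, SE 0.27, adjusted p = 0.0155). Cth, which makes cysteine from cystathionine, was lower in NDL than in Met1 (-1.45, adjusted p = 0.0325), with an NDL mean under the 25th percentile of all genes. Slc3a2, the heavy chain of the cystine transporter, was higher in NDL than in SSM2 tumours (0.80, adjusted p = 0.00412) and higher in Met1 than in SSM2 tumours (0.60, adjusted p = 0.0172). The calls of Anpep ended without NDL replicate 2, or Met1 replicate 1 or 2 (adjusted p 0.0752 to 0.0833) against Met1 and without NDL replicate 2, or SSM2 replicate 2 (adjusted p 0.0523 to 0.066) against SSM2. The calls of Oplah against SSM2, of Cth and of Slc3a2 in Met1 against SSM2 ended without NDL replicate 1, or SSM2 replicate 2 (adjusted p 0.0532 to 0.0538), without each of NDL replicates 1 to 3 in turn, or each of Met1 replicates 1 to 3 in turn (adjusted p 0.0529 to 0.108) and without each of Met1 replicates 1 to 3 in turn (adjusted p 0.0532 to 0.0679).

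**Figure D5:**
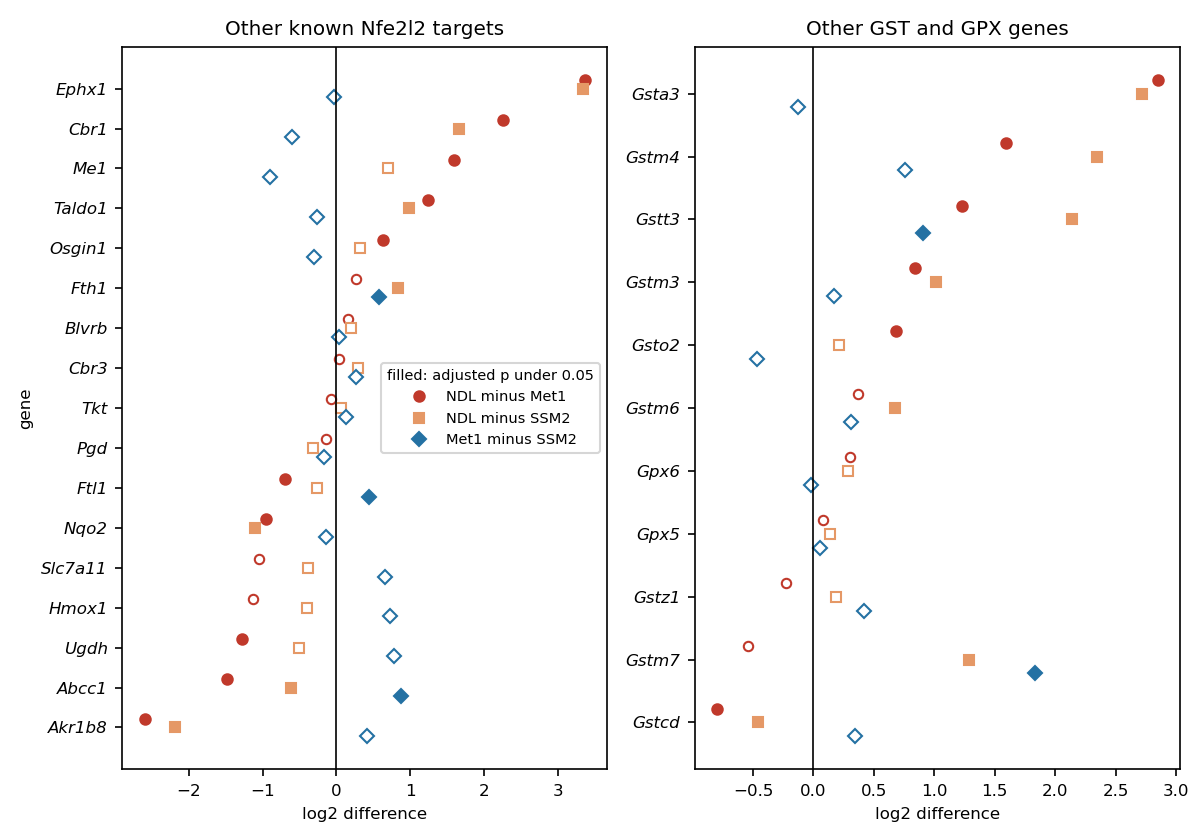
Log2 differences of companion genes outside the 38 members for the 3 contrasts (points), with filled points at an adjusted p under 0.05. Ephx1 and Gsta3 were higher in NDL than in both other lines, and Akr1b8 was lower.

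Among 13 glutaredoxin and thiol repair genes, Glrx, which removes glutathione from proteins, differed in all 3 contrasts, by -0.71 for NDL minus Met1 (adjusted p = 0.00924), 0.86 for NDL minus SSM2 (adjusted p = 0.00461) and 1.57 for Met1 minus SSM2 (adjusted p = 0.000331). The mitochondrial Glrx5, which serves iron-sulfur cluster assembly, was higher in NDL (0.84, adjusted p = 0.0048) and in Met1 (0.97, adjusted p = 0.00292) than in SSM2. The methionine sulfoxide reductase Msrb3 (-1.45, adjusted p = 0.0108) and the sestrin Sesn1 (-0.72, adjusted p = 0.0253) were lower in NDL than in Met1, and Msrb1 was higher in NDL than in SSM2 tumours (0.88, adjusted p = 0.0341). In Met1 against SSM2, Sesn2 (0.65, adjusted p = 0.049) was higher, and Msrb2 (-1.07, adjusted p = 0.0283) and Txnip, the thioredoxin-binding protein (-0.84, adjusted p = 0.0142), were lower. The calls of Sesn1 and Msrb1 ended without NDL replicate 1 or 2, or Met1 replicate 1 or 2 (adjusted p 0.0676 to 0.0927) and without NDL replicate 1 or 2, Met1 replicate 1, or SSM2 replicate 2 or 3 (adjusted p 0.0602 to 0.105). The calls of Sesn2 and Msrb2 ended without NDL replicate 1 or 3, each of Met1 replicates 1 to 3 in turn, or SSM2 replicate 1 or 2 (adjusted p 0.0515 to 0.145) and without NDL replicate 1, Met1 replicate 1 or 2, or SSM2 replicate 2 or 3 (adjusted p 0.0543 to 0.0991).

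Of 11 further glutathione transferase and peroxidase genes, 5 were higher and 1 lower in NDL than in Met1, and 6 were higher and 1 lower in NDL than in SSM2. Gsta3 differed by 2.85 (adjusted p = 0.000115) and 2.72 (adjusted p = 0.000146) in these contrasts, Gstm4 by 1.59 (adjusted p = 0.025) and 2.35 (adjusted p = 0.00551), and Gstt3 by 1.23 (adjusted p = 0.00191) and 2.14 (adjusted p = 0.000145). Gstm3 was higher in NDL than in Met1 by 0.84 (adjusted p = 0.0108), a call that ended with the mean of its features (adjusted p = 0.0533) and without NDL replicates 1 and 2 (0.0999). Gstm7 was higher in NDL (1.29, adjusted p = 0.00747) and in Met1 (1.83, adjusted p = 0.00171) than in SSM2, and Gstt3 was higher in Met1 than in SSM2 tumours (0.91, adjusted p = 0.0121). The call of Gstm4 against Met1 ended without NDL replicate 1 or 2, or each of Met1 replicates 1 to 3 in turn (adjusted p 0.0535 to 0.0904), and that of Gstt3 in Met1 against SSM2 ended without Met1 replicate 1 (adjusted p 0.0536). The 1 gene lower in NDL than in SSM2, Gstcd (-0.46, adjusted p = 0.0472), lost its call without NDL replicate 1 or 2, each of Met1 replicates 1 to 3 in turn, or each of SSM2 replicates 1 to 3 in turn (adjusted p 0.0617 to 0.13), and was chosen for mention after its values were seen. As with the members, probes of these classes may bind several relatives.

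Of 9 measured genes for enzymes that produce superoxide or hydrogen peroxide, the dual oxidases Duox1 and Duox2 were higher in NDL than in Met1 (2.62, adjusted p = 1.04e-05, and 2.00, adjusted p = 0.000729) and than in SSM2 tumours (2.24, adjusted p = 1.37e-05, and 1.96, adjusted p = 0.000942). The Duox2 means of Met1 and SSM2 tumours were under the 25th percentile of all genes. Xdh, xanthine dehydrogenase, was higher in NDL (2.80, adjusted p = 0.00379) and in Met1 (2.37, adjusted p = 0.00953) than in SSM2. Cybb, the oxidase subunit of phagocytes, was lower in NDL than in Met1 (-1.50, adjusted p = 0.0484), a call that ended without NDL replicate 1 or 2, each of Met1 replicates 1 to 3 in turn, or SSM2 replicate 2 (adjusted p 0.0702 to 0.168). Macrophage markers were lower in NDL than in Met1 tumours as well, for 9 of 10, and their part in the Cybb signal was not tested.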

How the data were processed

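Total RNA of 9 mammary tumour samples was measured on 1 array each. The deposited values are log2 signals made by the authors with RMA (oligo 1.40.2, per the submitters' processing notes), a method that subtracts background, quantile-normalises the arrays and combines probes into features, and the genome build is not given in the sources used here. Of 35556 features, 21789 carried 1 gene symbol, 1621 several and 12146 none, by GEO's platform annotation. Symbols were updated through RefSeq GRCm38.p6 (21766 matched, 23 kept), and for 999 genes with several features the one with the highest mean was used. Arrays have no read depth, and their number limits the precision.

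The log2 values of 19938 genes on all 9 arrays were fitted with lmFit and eBayes of limma 3.58.1 (6 residual and 2.42 prior degrees of freedom), without further scaling, filter or covariate. The 3 two-sided contrasts and the F-test were each adjusted by Benjamini-Hochberg over all genes, with calls at 0.05. The fit was tested on simulated data with 200 changed genes. Software was R 4.3.3 with the package data.table, version 1.17.8, and Python 3.11.15 with pandas 2.3.3 and matplotlib 3.10.9. Intervals are limma's 95% intervals for 1 gene, with no adjustment for the number of genes, SE is the model's, and SD is that of a line's arrays.

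The members and all lists were chosen with earlier results of these data known. Array values are printed for Nfe2l2, Keap1, Prdx4 and, per contrast, for up to 8 called members in each direction. Genes of companion lists are named for up to 4 calls per contrast, or for every call in a list with 5 or fewer. Alternatives covered filters, the variance model, normalization, array weights, features, the replicate number as a block, the lines in the fit, the adjustment, and left-out arrays.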

Additional observations from a re-analysis of the deposited data

How the results depend on the processing

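Of the 34 calls of a member in a contrast, 16 passed under all 21 alternatives and 24 passed with each array left out in turn, and no log2 difference of a called member changed sign. With 1 array left out, the count of members called ran from 6 to 10 higher and 3 to 5 lower in NDL against Met1, from 8 to 10 higher and 4 to 7 lower in NDL against SSM2, from 1 to 3 higher and 3 to 5 lower in Met1 against SSM2, and from 14 to 18 in the F-test. The shares of all genes called ran over the same fits from 11.9% to 33.3%, 9.39% to 35.2%, 6.82% to 13.8% and 16.8% to 41.7%, highest without NDL replicate 3 in each. The shares of the members without NDL replicate 3 were 31.6%, 44.7%, 18.4% and 47.4% in the same order. In NDL against Met1 the share of the members was then under that of all genes. The lone value of 1 came without Met1 replicate 1, Met1 replicate 3 or SSM2 replicate 2. Without NDL replicates 1 and 2, where the lone NDL array is assumed to vary like the other lines, 3 members were higher in NDL against Met1, 4 higher and 3 lower in NDL against SSM2, and 11 differed in the F-test, against 8.54%, 5.97% and 14.7% of all genes. Array weights gave 6 members higher and 8 lower in Met1 against SSM2, where 20.1% of all genes passed, against 11.8% without weights, and the cause was not tested. Array weights also ended the calls of Cat, Gsto1 and Txnrd2 in NDL against SSM2 (adjusted p 0.051 to 0.148). An intensity trend with robust fitting ended those of Txnrd1 against Met1 and of Cat and Txnrd2 against SSM2 (0.0559 to 0.0629), cyclic loess that of Txnrd1 (0.0516) and quantile normalization that of Gsto1 (0.053). The correlations of same-numbered arrays' deviations from their line means ran from -0.347 to 0.288. With 3 arrays per line the deviations of a line constrain each other, so these values cannot decide whether the replicate numbers paired the samples. The fit with the replicate number as a block called 6 higher and 3 lower in NDL against Met1, 8 and 6 in NDL against SSM2, 2 and 4 in Met1 against SSM2, and 15 in the F-test. It ended the calls of Cat, Gstm1 and Txnrd1 against Met1 and of Cat and Txnrd2 against SSM2 and changed no other call of a member. The fit of the compared lines alone ended the calls of Cat, Gpx8, Gsto1, Txn2 and Txnrd2 between NDL and SSM2. The signal of Nqo1, under the 25th percentile of all genes, limits what its values can show.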
